A study of Chlamydomonas reinhardtii with 15 samples.

Results

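GSTS1 is a glutathione S-transferase gene of the green alga Chlamydomonas reinhardtii, and its transcript was followed across cultures given 1 of 4 reactive chemicals or none. It is 1 of 16283 probes on the array. The probe was chosen by its identity, GT_Chlamydomonas_specific_006316, with its response in these same groups already known, so its own levels below are a description without a test. The probe carries JGI transcript number 193661, which matches the older tag of locus CHLRE_16g688550v5 on chromosome 16. The symbol GSTS1 comes from the description that chose the gene, because the deposited tables and the reference gene table pair no locus with a symbol. No other probe carries that transcript number or that locus tag.

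Glutathione S-transferases join the thiol of glutathione to electrophilic compounds, such as reactive carbonyls and quinones, which makes these compounds more soluble and less reactive. In Chlamydomonas the GSTS1 transcript is known as a marker of the response to singlet oxygen and to reactive electrophiles. Singlet oxygen is formed when excited pigments or dyes pass their energy to oxygen, and its attack on membrane lipids yields reactive electrophiles in turn.

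All cultures were of the wild-type strain 4A+ (background 137c), grown in the light on acetate medium, and RNA was taken after 2 h. The NR group received 3 µM neutral red, a photosensitising dye whose excited state passes energy to oxygen. The tBOOH group received 100 µM tert-butylhydroperoxide, a peroxide, and the DBMIB group 2 µM of DBMIB, a quinone inhibitor of the cytochrome b6f complex. The Hexenal group received 0.3 mM 2(E)-hexenal, an aldehyde with a reactive double bond. The control received no chemical. Each of the 5 groups had 3 cultures described as independent biological replicates, so 15 one-colour arrays were available. The doses differ between chemicals, and values under different chemicals are therefore set side by side as they were measured. On the 12 treated arrays 72.7% to 89.8% of probes were well above background. With 3 arrays a group, that number sets the precision of what follows.

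GSTS1 was far higher under each of the 4 chemicals than in control. On the deposited log2 scale it stood at 18.19, 18.24 and 18.19 on the NR arrays and at 17.88, 17.25 and 17.28 on the tBOOH arrays. The DBMIB arrays gave 18.19, 18.09 and 17.94, the Hexenal arrays 18.59, 18.55 and 18.66, and the control arrays 11.82, 11.92 and 11.81. Every treated array lay above every control array, and the smallest gap between any of them, from the lowest tBOOH array to the highest control array, was 5.33 on the log2 scale.

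The mean level was 18.21 ± 0.03 under NR, against 11.85 ± 0.06 in control (SD, n = 3 each), a log2 change of 6.36 or 81.9-fold. Under tBOOH it was 17.47 ± 0.36, a change of 5.62 or 49.2-fold over the same controls. DBMIB gave 18.07 ± 0.13, a change of 6.22 or 74.7-fold. Hexenal gave 18.60 ± 0.06, a change of 6.75 or 108-fold. In the deposited values all arrays share the same sorted set to within 0.01. Each fold against control is therefore a distance between places in that shared set. The 4 changes spanned 1.13 on the log2 scale, and tBOOH replicate 1 stood above the other tBOOH arrays. Because the 4 comparisons use the same 3 control arrays, they are not independent of each other. Centred on 7 spike-in features instead, the changes were 6.21 with NR, 5.44 with tBOOH, 5.68 with DBMIB and 6.47 with Hexenal. That centring also shifted all probes, whose median change was then -0.14, -0.09, -0.49 and -0.15 in the same order.

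**Figure D1:**
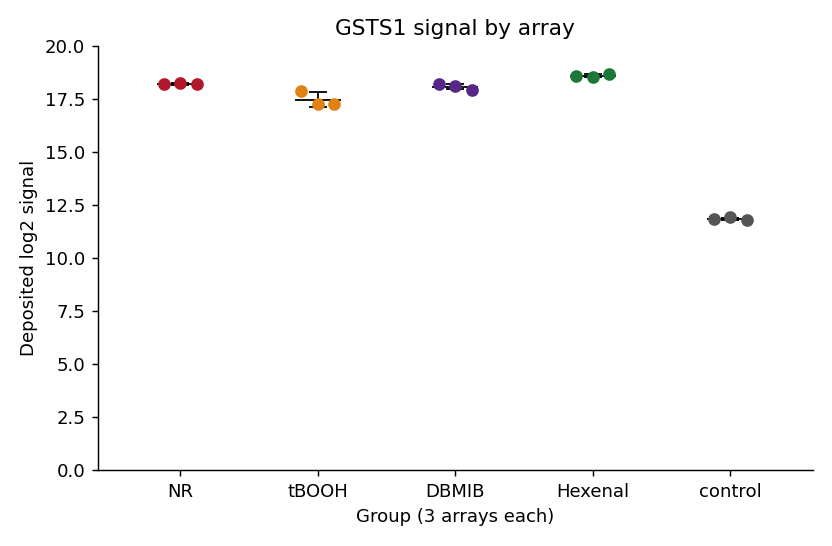
Deposited log2 signal of the GSTS1 probe (vertical axis, from 0) on each array, by group (horizontal axis). Points are arrays, the bar is the group mean and the whiskers are 1 SD (n = 3). All treated arrays lie between 17.25 and 18.66 and the control arrays between 11.81 and 11.92.

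By rank of probe signal, GSTS1 stood among the brightest probes in every treated group. Ordered by group mean among 16283 probes, it was number 13 with NR, 38 with tBOOH, 17 with DBMIB and 5 with Hexenal, against 1530 in control. On single arrays its rank lay between 13 and 14 with NR, 21 and 51 with tBOOH, 14 and 20 with DBMIB and 5 and 7 with Hexenal, against 1497 to 1575 in control. Already in control, then, 9.40% of probes gave at least its signal, itself included. Probes differ in how well they bind, so a rank of signal is not a rank of transcript abundance.

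Ranked by change against control, GSTS1 was number 2 under NR, where a single probe, for transcript 396033 with no locus tag, had a larger change (7.04). Its rank was 19 with tBOOH, 41 with DBMIB and 18 with Hexenal, where the largest changes of any probe were 7.93, 11.83 and 12.63. Between 17 and 40 probes thus had a larger change than GSTS1 under tBOOH, DBMIB and Hexenal, and 1 probe under NR.

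Few probes were raised as much by all 4 chemicals. The smallest change of GSTS1 under any chemical, 5.62, was exceeded by the smallest change of 2 probes, for transcripts 396033 and 293495. In all, 6 probes, GSTS1 among them, were at least 32-fold higher under every chemical. The other 5 had lower control levels than GSTS1, between 4.60 and 7.09 against 11.85. Among the 1530 probes at or above the control level of GSTS1, itself included, the next largest smallest change was 4.45, that of locus CHLRE_14g617400v5 (12.87 in control). The deposited values reach 19.25 at most, so that 7.40 was the largest change the control level of GSTS1 allowed. Probes that started higher, such as that of CHLRE_14g617400v5, had less room to rise, so this ceiling bears on the comparison.

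**Figure D2:**
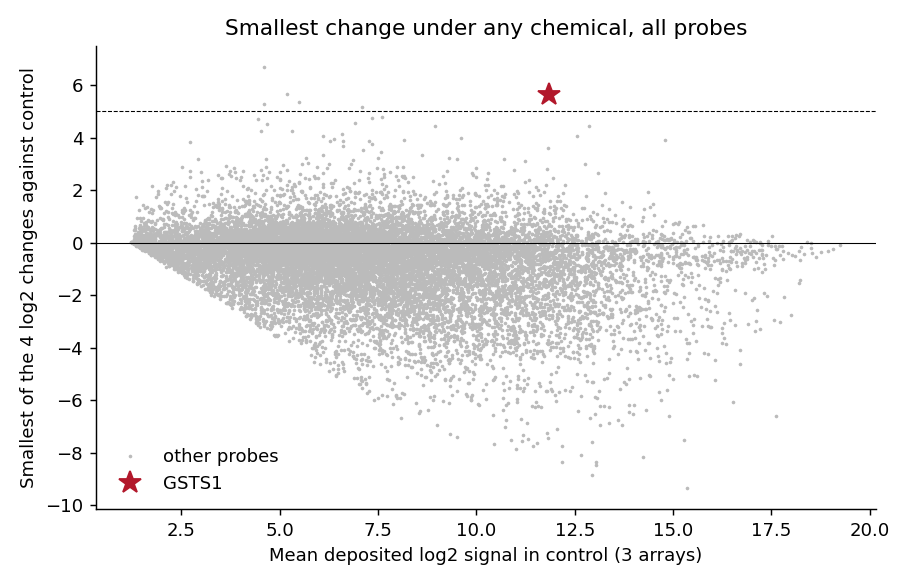
Smallest of the 4 log2 changes against control (vertical axis) plotted against the mean deposited log2 signal in control (horizontal axis) for 16283 probes. The star is GSTS1 and the dashed line marks 5, which is 32-fold. Of the 6 probes above the line, GSTS1 has the highest control level, 11.85.

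The order of the chemicals depended on the scale. In the deposited table each array has the same set of sorted values to within 0.01, so the value of a bright probe there is set by its rank. The scanner tables of the 12 treated arrays keep the signal itself. Relative to each array's 75th percentile, GSTS1 was at 8.68, 8.78 and 8.64 (log2) on the NR arrays and at 8.61, 8.23 and 7.95 on the tBOOH arrays. It was at 9.44, 9.22 and 9.21 on the DBMIB arrays and at 9.49, 9.48 and 9.37 on the Hexenal arrays. On this scale the DBMIB and Hexenal arrays overlapped and both groups lay above all NR arrays, which in turn lay above all tBOOH arrays. Before division by the percentile, the DBMIB signals overlapped with those of NR and lay below all those of Hexenal.

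The means on the scanner scale were 8.70 ± 0.07 with NR, 8.26 ± 0.33 with tBOOH, 9.29 ± 0.13 with DBMIB and 9.45 ± 0.06 with Hexenal (SD, n = 3 each), or 416, 307, 626 and 698 times the 75th percentile. Hexenal minus DBMIB was 0.16, little more than the SD of 0.13 under DBMIB, and the arrays of both groups overlapped. On the deposited scale the same difference was 0.53 with no overlap. DBMIB minus NR was 0.59 on the scanner scale, and turned to -0.13 with overlapping arrays on the deposited scale. Against control and with spike-in centring, DBMIB also gave less than NR, at 5.68 and 6.21. The 75th percentile was itself lower on the DBMIB arrays (460, 489 and 468) than on the NR arrays (718, 702 and 698). Before division by it, GSTS1 signals overlapped, at 276667 to 319667 under DBMIB and 279333 to 309667 under NR. NR minus tBOOH was 0.44 on the scanner scale and 0.74 on the deposited one, with no overlap on either. When single arrays were left out, the scanner difference ran from 0.28 (without tBOOH replicate 3) to 0.61 (without tBOOH replicate 1). Hexenal was the highest and tBOOH the lowest on all 3 scales, whereas the places of NR and DBMIB were exchanged between them.

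**Figure D3:**
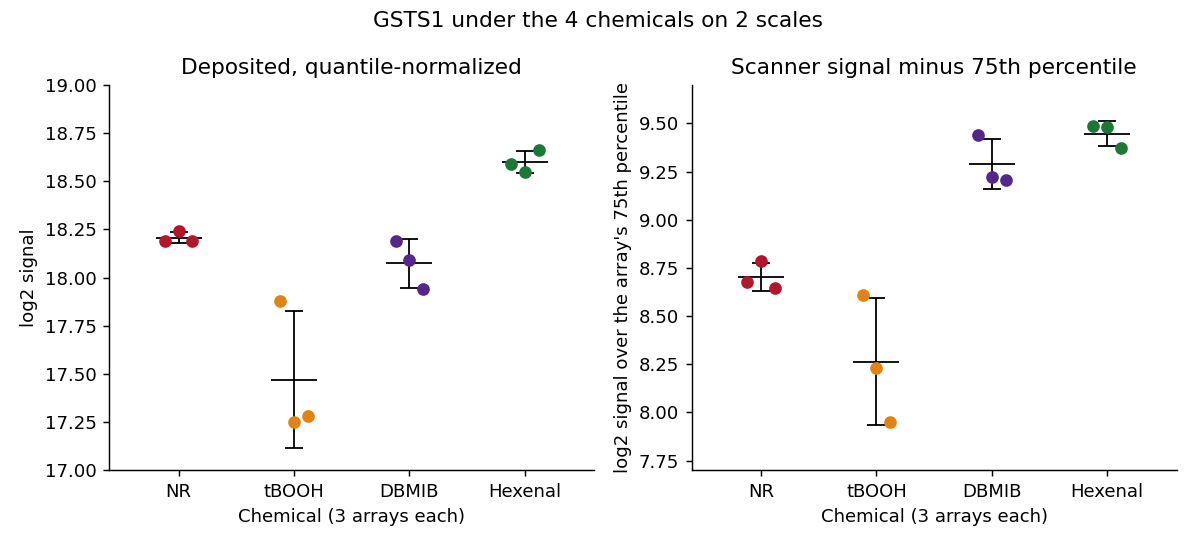
GSTS1 on the 12 treated arrays, as deposited log2 signal (left) and as log2 scanner signal minus the array's 75th percentile (right), by chemical; neither axis starts at 0. Points are arrays, the bar is the mean and the whiskers are 1 SD (n = 3). DBMIB lies at 18.07 beside NR at 18.21 on the left, and at 9.29 above NR at 8.70 on the right.

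The signals behind these values lay far above background and agreed closely between spots. GSTS1 has 3 spots per array, and all 36 spots on the treated arrays were well above background and none was saturated. Among them 1 spot, on DBMIB replicate 2, was flagged as an outlier. That spot counts in the mean signals and spot variation below, but not in the scanner values above. The mean processed signal of the 3 spots was 294000, 309667 and 279333 on the NR arrays and 212000, 214667 and 151667 on the tBOOH arrays. It was 319667, 290667 and 276667 on the DBMIB arrays and 375333, 435667 and 383333 on the Hexenal arrays. The spots of an array differed by a coefficient of variation of 0.21% to 3.83%, less than the spread between tBOOH arrays. All 36 spots carried the flag for a signal scaled up from a scan at lower gain, as did 2.19% to 3.18% of all spots per array, so the treated signals rest on that scaling. Whether the control spots carried it was not analysed here. The pooled SD of GSTS1 over the 5 groups was 0.17 on the deposited scale, against a median of 0.27 over all probes, dim ones included. By group, its SD was 0.36 under tBOOH and 0.03 to 0.13 in the others.

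Loci with a pattern like that of GSTS1 were sought by the root mean square difference of their 4 log2 changes from its own. Of 6743 specific probes with a locus tag, the nearest was CHLRE_03g145787v5, at a difference of 1.34. It was higher by 5.81 with NR, 3.87 with tBOOH, 8.07 with DBMIB and 7.37 with Hexenal. CHLRE_13g583450v5 followed at 1.43, with changes of 3.89, 5.11, 5.17 and 5.93 in the same order. CHLRE_14g617400v5 came next at 1.44, with 4.45, 5.22, 5.17 and 4.92.

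The last of the 5 nearest tagged loci were CHLRE_09g394658v5 (1.51) and CHLRE_10g424350v5 (1.52). In the same order, the changes were 4.84, 3.02, 6.31 and 7.01 for CHLRE_09g394658v5, and 4.96, 3.78, 6.39 and 4.79 for CHLRE_10g424350v5. By this root mean square measure all 5 lay more than 1 from GSTS1, and 4 of them had control levels of 6.25 to 7.36. Nearer than any of them were 13 probes without a usable tag, led by that of transcript 347605, at 0.54, with changes of 6.07, 5.29, 6.22 and 7.73. These probes were picked for their likeness, so no test was made of it, and the products of the loci were not annotated in the tables used.

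**Figure D4:**
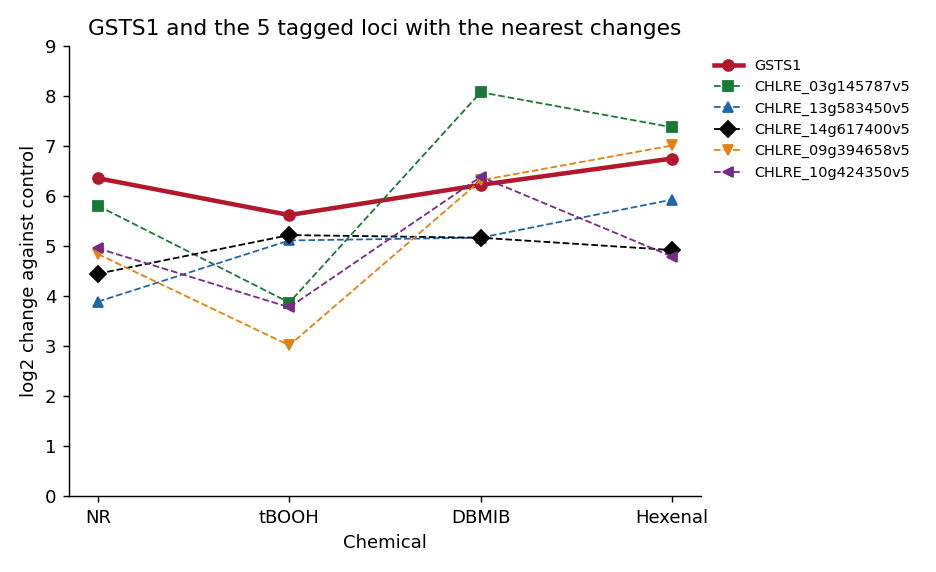
Log2 change against control (vertical axis) under each chemical (horizontal axis) for GSTS1 (thick line) and the 5 tagged loci whose changes lie nearest to it; lines join the values of 1 locus and imply no order. GSTS1 runs between 5.62 and 6.75, and 3 of the loci dip to 3.02 to 3.87 under tBOOH.

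The loci around GSTS1 moved in both directions. In the order of the v5.5 gene table, the 3 nearest loci on each side with a matched probe were tested in a model over all probes. Only 42.6% of probes could be matched to a locus, so loci passed over in between may have a probe too. In that model 45.0% of probes were called with NR, 60.1% with tBOOH, 61.9% with DBMIB and 57.3% with Hexenal. Of the 6 neighbours, 5 were called with NR (2 higher, 3 lower), 5 with tBOOH (2 higher, 3 lower), 5 with DBMIB (3 higher, 2 lower; 4 in all with spike-in centring) and 6 with Hexenal (3 higher, 3 lower). The median change of the neighbours was -0.28, -0.98, 0.71 and 0.49 in that order, against 0.01, 0.10, 0.06 and 0.13 over all probes. So few loci, at such a background of calls, say little beyond their own values.

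CHLRE_16g688600v5, the next locus after GSTS1, fell under every chemical. Its probe belongs to the array's cross-hybridising class, so related transcripts may contribute. It was at 12.42, 11.85 and 11.96 on the NR arrays, 9.53, 10.71 and 10.32 under tBOOH, 9.35, 8.77 and 9.05 under DBMIB and 5.69, 6.25 and 6.62 under Hexenal, against 12.30, 13.55 and 13.54 in control. Only the NR arrays overlapped with control. The log2 change was -1.05 under NR (SE 0.36, limma adjusted p = 0.0285), -2.94 under tBOOH (adjusted p = 5.70e-06), -4.08 under DBMIB (adjusted p = 2.01e-07) and -6.94 under Hexenal (adjusted p = 1.41e-09). The call under NR was lost without NR replicate 2 (adjusted p = 0.0939) or 3 (0.0807) and without control replicate 2 (0.115) or 3 (0.111).

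CHLRE_16g682725v5, 14 places before GSTS1, was the 1 neighbour that rose under every chemical. It was at 14.68, 14.76 and 14.94 on the NR arrays, 13.25, 12.57 and 12.65 under tBOOH, 14.91, 14.73 and 14.08 under DBMIB and 16.29, 16.15 and 16.18 under Hexenal, against 11.12, 10.58 and 11.17 in control. No treated array overlapped with control. The log2 change was 3.84 under NR (SE 0.24, limma adjusted p = 2.62e-08), 1.87 under tBOOH (adjusted p = 7.58e-06), 3.62 under DBMIB (adjusted p = 1.08e-08) and 5.25 under Hexenal (adjusted p = 3.64e-10).

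Of the remaining neighbours, CHLRE_16g688650v5 fell under every chemical, with log2 changes of -1.08, -1.98, -0.61 and -0.88 in the order NR, tBOOH, DBMIB, Hexenal. With only the DBMIB and control arrays in the fit, the DBMIB change missed the threshold (limma adjusted p = 0.0575), and without control replicate 1 it was -0.40 (limma adjusted p = 0.0383). CHLRE_16g688750v5 rose by 1.70 under NR, 1.43 under tBOOH and 1.73 under Hexenal, and its change of 0.12 under DBMIB did not pass (limma adjusted p = 0.617). CHLRE_16g688450v5, a pair of places before GSTS1, rose by 3.28 under DBMIB and 1.83 under Hexenal and fell by 1.43 under tBOOH. It was well above background on only 2 of the 3 tBOOH arrays. Its change under NR was 0.49 and did not pass (limma adjusted p = 0.160). That change was 0.73 (adjusted p = 0.0494) without NR replicate 1, 0.29 (adjusted p = 0.481) without NR replicate 2 and 0.32 (adjusted p = 0.422) without control replicate 3. CHLRE_16g685573v5 fell by 2.22 under NR and rose by 1.30 under DBMIB, a call lost with spike-in centring (limma adjusted p = 0.0711). It was well above background on only 2 of the 3 NR arrays. Under Hexenal it fell by 0.75 (limma adjusted p = 0.0282), a call lost without Hexenal replicate 1 (0.0637) or 3 (0.0921) and without control replicate 1 (0.121) or 2 (0.0880). Its change of -0.53 under tBOOH did not pass (limma adjusted p = 0.110). It was -0.80 without control replicate 3 (adjusted p = 0.0212) and -0.34 without control replicate 1 (adjusted p = 0.350), and with the replicate number as a block the adjusted p was 0.0499.

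**Figure D5:**
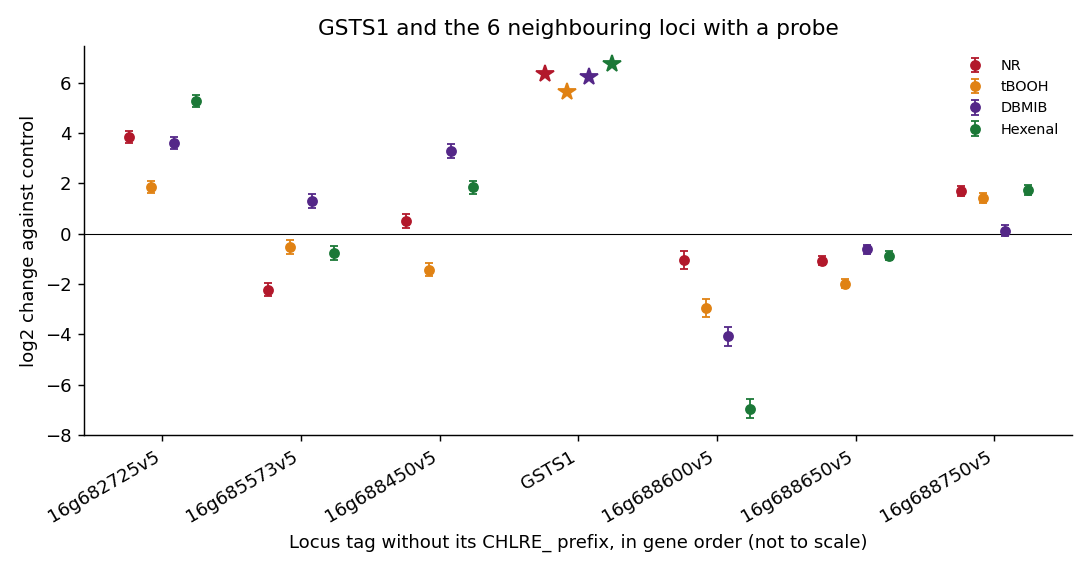
Log2 change against control (vertical axis) of GSTS1 (stars) and of the 6 neighbouring loci with a matched probe (circles, with 1 SE of the limma fit), in gene order and not to scale; colours are the chemicals. The stars lie between 5.62 and 6.75, while CHLRE_16g688600v5 beside them runs from -1.05 under NR to -6.94 under Hexenal.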

How the data were processed

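Per the labels' protocols, Cy3-labelled RNA was hybridised to custom 1-colour Agilent arrays. The authors deposited log2 values of all 15 arrays, which the values show to be quantile-normalized; the steps are not given in the sources used here. For the 12 treated arrays, the deposited scanner tables hold background-subtracted signal intensity per spot on a linear scale. Control arrays entered only through the log2 table.

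Changes against control are differences of deposited log2 values, with 60 control features left out. Neighbouring loci were tested with limma 3.58.1 (R 4.3.3; lmFit and eBayes over 5 groups) and called at a two-sided Benjamini-Hochberg adjusted p under 0.05 over 16283 probes, after a test on simulated data. Between chemicals, log2 signals were centred on each array's 75th percentile, without outlier-flagged spots. Transcript numbers below 200000 were matched to old locus tags of assembly Chlamydomonas_reinhardtii_v5.5, a later build than the array's, which tied 6942 probes to a locus; its coordinates are not used. The rule named GSTS1, the 5 nearest tagged patterns and the 3 loci with a matched probe on each side, and gave probes above GSTS1 by change as numbers. Transcripts 396033, 293495 and 347605 were named after their values were seen. The planned lists of glutathione and antioxidant genes and of the GSTS1 protein family were not analysed here, for want of annotation. The planned correlation over arrays is not given, because control and treated arrays form separate clusters. The gene and lists were chosen with earlier results of these data known.

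Same-numbered NR and control arrays deviated together from their group means (correlations 0.217, 0.141 and 0.205 across probes), so the numbers may mark pairs there. The same check gave 0.110, 0.054 and 0.246 for tBOOH, -0.037, 0.028 and 0.017 for DBMIB and -0.109, 0.128 and -0.062 for Hexenal. Arrays of different number gave -0.174 to 0.024 for NR, -0.194 to 0.059 for tBOOH, -0.1 to 0.067 for DBMIB and -0.154 to 0.164 for Hexenal.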

Additional observations from a re-analysis of the deposited data

How the results depend on the processing

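The 4 changes of GSTS1 against control stayed between 6.34 and 6.39 with NR, 5.42 and 5.73 with tBOOH, 6.17 and 6.29 with DBMIB and 6.72 and 6.79 with Hexenal when single arrays were left out. Spike-in centring moved them by more than the spread between replicates under NR (6.21), DBMIB (5.68) and Hexenal (6.47). It took the share of called probes that were higher to 41.1% with NR, 44.1% with tBOOH, 27.2% with DBMIB and 39.3% with Hexenal, against 52.6%, 53.1%, 50.9% and 55.1% on the deposited scale. Between chemicals, the deposited values gave 0.53 for Hexenal minus DBMIB and -0.13 for DBMIB minus NR, against 0.16 and 0.59 on the scanner scale, where leaving out single arrays gave 0.12 to 0.23 and 0.51 to 0.63. With normexp on the median signal (no mean signal is in the tables), NR minus tBOOH was 1.15, against 0.44; the lower quartile of normexp signals was 363, 493 and 2138 on NR replicate 2 and tBOOH replicates 2 and 3, against 83.5 to 98.2 on the other arrays. Keeping spots flagged as outliers changed none of these 3 differences by more than 0.01. The change of CHLRE_16g688750v5 under DBMIB, which was not called, turned to -0.42 with spike-in centring, -0.0897 without DBMIB replicate 1 and -0.0553 without control replicate 3; without single arrays it ran from -0.0897 to 0.2817. With the replicate block, 7690 probes were called with NR, 10072 with tBOOH, 10375 with DBMIB and 9626 with Hexenal, against 7332, 9784, 10084 and 9329 without it. Besides the neighbour named above under tBOOH, the block changed no call among the 24 of the neighbouring loci. Counts of the GSTS1 protein family were not run. The causes of these shifts were not tested.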
